A study of Mus musculus with 9 samples.

Results

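The transcripts of 10 integrin genes were followed in mouse bone marrow MEPs, the megakaryocyte-erythroid progenitors, sorted by their binding of an antibody fragment against heparan sulfate (HS). They are the leukocyte integrin genes Itgal, Itgam, Itgb2 and Itgb7, and the beta1 integrin Itgb1 with the alpha chains Itga4, Itga5, Itga6, Itga9 and Itgav. They were taken by symbol from 35275 genes of the count table, which holds all 26 mouse integrin genes, and the platelet pair Itga2b and Itgb3 was kept apart. The genes were chosen by name and family, with earlier results for their levels in these libraries known, namely the counts of the HS3A8 fractions and the control. Levels, counts and p-values of the members are therefore a description of these libraries.

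Bulk RNA-seq libraries were made from 25000 MEPs each, gated as Lin-ckit+CD34-FcgammaRII/IIIlo. HS3A8-high MEPs were the 50% with the strongest and HS3A8-low MEPs the 50% with the weakest binding of HS3A8, an HS-specific scFv. MPB49 control MEPs passed a mock sort with an scFv that has no HS binding and stand for total MEPs. Each group had 3 libraries, with no treatment, time course or engineered allele named in the labels. The study's mice were 6 to 12 wk old, and the strain behind these libraries is not stated in the labels. The figure legend of the study gives individual mice, but no source used here says whether same-numbered fractions came from 1 animal.

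Integrins are surface receptors made of an alpha and a beta chain, which bind matrix proteins or receptors on other cells and link them to the actin cytoskeleton. The beta chain sets the family. Beta2 pairs with alphaL (LFA-1) or alphaM (Mac-1, also called CD11b) on leukocytes, beta7 pairs with alpha4 in homing of lymphocytes to the gut, and beta1 pairs with alpha4, alpha5, alpha6, alpha9 and alphav. In bone marrow, alpha4beta1 and alpha5beta1 hold progenitors and erythroblasts to VCAM-1 and fibronectin. The lineage antibodies of the study that define Lin- cells include one against CD11b, the product of Itgam, so cells carrying much of that protein were gated out.

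Library totals ran from 11781637 to 15850037 counts. Levels are CPM, counts scaled by the library total and by TMM (a factor that offsets differences in RNA composition between libraries), and errors are SD with n = 3. Kit, which the gate requires, was at 380 to 807 CPM. Of the erythroid markers, Gata1 was at 355 to 522 CPM and Epor at 206 to 303 CPM. The 11 erythroid markers spanned a wide range, from Alas2 at 1.21 to 9.26 CPM to Car2 at 4321 to 6053 CPM. Cd34, which the gate excludes, ran from 0.84 CPM in HS3A8-high to 73.2 CPM in HS3A8-low. Replicate 3 of both HS3A8 fractions stood apart: the summed level of 19 granulocyte and monocyte markers was 2007 CPM in HS3A8-high replicate 3 and 5095 CPM in HS3A8-low replicate 3, against 13.4 to 295 CPM in the other 7 libraries. The Fc receptor gene Fcgr3, whose product the gate takes only at a low level, stood at 17.8 and 43.6 CPM in those libraries and at 0.147 to 2.26 CPM in the others.

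The integrin genes fell into those with more transcript in HS3A8-low MEPs and those whose levels overlapped between the fractions. Itgal was 6.37-fold, Itgb7 2.23-fold and Itgb2 2.07-fold higher in HS3A8-low, with no overlap between the fractions, as for 14.3% of all genes tested. Itgb1 averaged 316.9 and 297.3 CPM and Itga4 115 and 113 CPM in HS3A8-high and HS3A8-low, with overlapping libraries. The median log2 fold change of HS3A8-high over HS3A8-low was -0.72 over the 9 genes with enough counts to test and -0.03 over all genes, and 7 of the 9 were lower in HS3A8-high. Of the 9 genes, 1 (Itgal) passed an adjusted p of 0.05 (Benjamini-Hochberg) in edgeR's quasi-likelihood test, and it was higher in HS3A8-low. Of the 11791 genes tested, 3.82% were called, and 3.21% were called as higher in HS3A8-low. With the replicate number as a block, 5 of the 9 were called, Itgal, Itgam, Itgb2, Itgb7 and Itga6, all higher in HS3A8-low, where 8.27% of all genes were. Without replicate 3 of both fractions 4 were called (all genes 6.01%), and DESeq2 called 3 (all genes 6.67%), in the same direction. Same-numbered fractions deviated together across genes, so the blocked value is given where it changes a call.

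**Figure D1:**
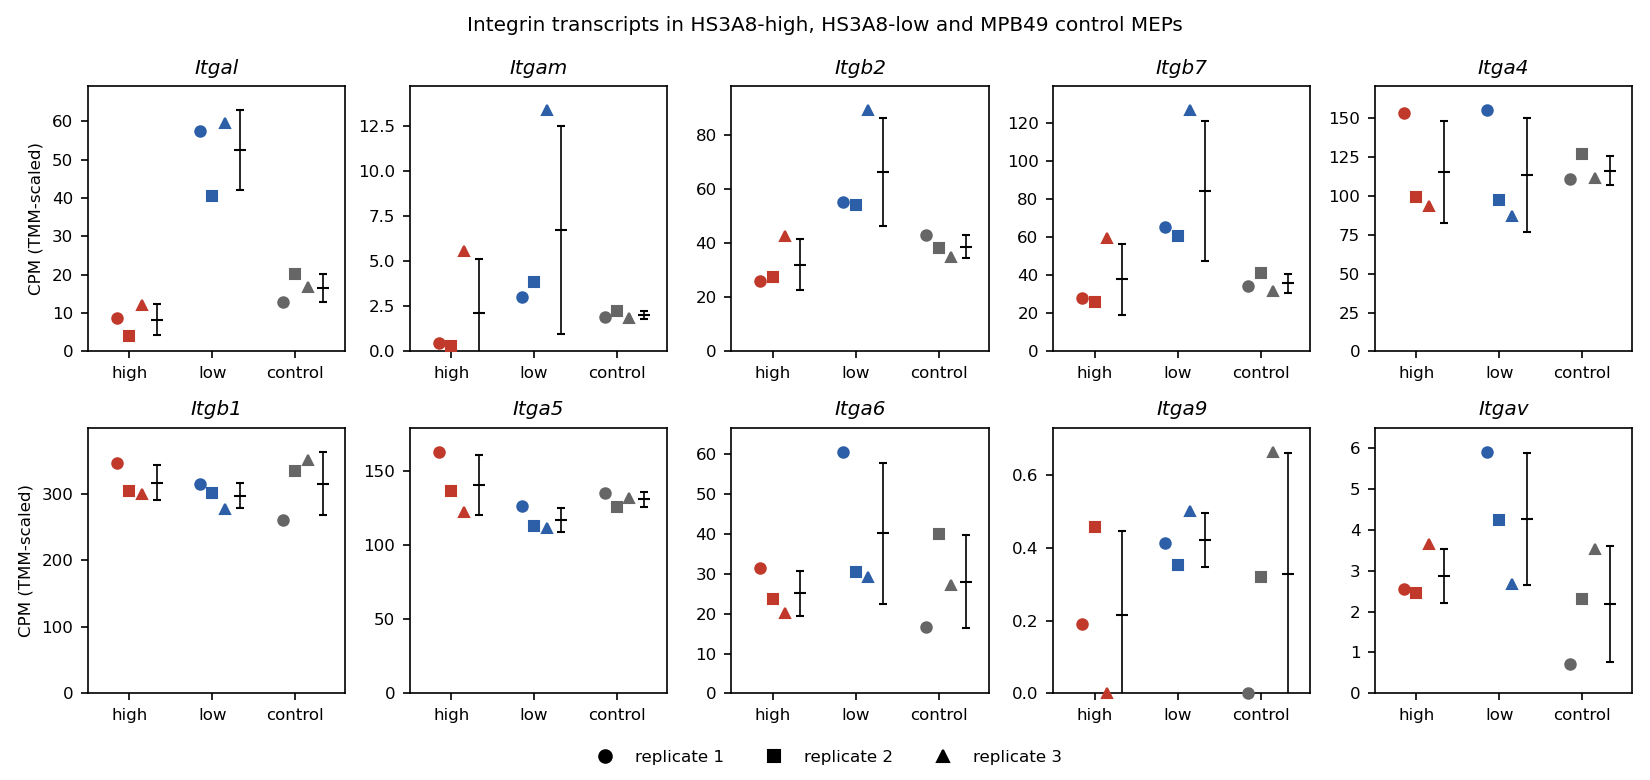
CPM (y axes, TMM-scaled, linear from 0) of the 10 integrin genes in each library of HS3A8-high, HS3A8-low and MPB49 control MEPs (x axes). Points are libraries with the replicate as marker shape, and bars are the mean and SD of 3 libraries, cut at 0. Itgal, Itgb2 and Itgb7 of HS3A8-low lie above the other 2 groups in every library, while Itgb1, Itga4 and Itga5 overlap between HS3A8-low and the control or HS3A8-high.

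The promoter windows of Itgam, Itgb7 and Itgb1 are shown because the first pair moved together over the libraries (Pearson r of 0.920 over 9 libraries, a description) and Itgb1 did not move with them. They are from RefSeq on GRCm38.p6, with 250 bases before and 50 after the start of each gene, read 5' to 3' on the gene's strand: chr7:128062390-128062689 (plus strand), chr15:102231886-102232185 (minus strand) and chr8:128685404-128685703 (plus strand). Capitals mark GAGGAA or its reverse complement TTCCTC, letters of the purine-rich site of the myeloid ETS factor PU.1.
Itgam: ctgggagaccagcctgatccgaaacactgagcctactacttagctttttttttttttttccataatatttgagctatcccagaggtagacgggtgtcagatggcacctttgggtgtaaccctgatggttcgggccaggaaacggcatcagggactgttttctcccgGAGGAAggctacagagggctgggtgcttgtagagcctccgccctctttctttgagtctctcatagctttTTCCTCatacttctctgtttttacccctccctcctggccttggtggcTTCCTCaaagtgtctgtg
Itgb7: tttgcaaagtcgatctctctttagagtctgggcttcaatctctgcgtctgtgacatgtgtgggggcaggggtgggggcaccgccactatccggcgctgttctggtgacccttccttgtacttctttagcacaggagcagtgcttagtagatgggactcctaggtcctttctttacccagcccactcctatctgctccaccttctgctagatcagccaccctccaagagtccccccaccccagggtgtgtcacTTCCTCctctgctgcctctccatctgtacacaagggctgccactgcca
Itgb1: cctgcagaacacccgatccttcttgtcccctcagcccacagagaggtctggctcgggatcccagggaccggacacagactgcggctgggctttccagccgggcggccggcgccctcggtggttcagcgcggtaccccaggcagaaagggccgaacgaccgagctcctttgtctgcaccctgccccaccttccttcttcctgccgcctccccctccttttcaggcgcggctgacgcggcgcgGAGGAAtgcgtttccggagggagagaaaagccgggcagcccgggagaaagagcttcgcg

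Entries were found for 7 of the 10 genes, and the promoter set used here held none for Itgal, Itgb2 and Itga6. The letters GAGGAA or TTCCTC occurred 3 times in the window of Itgam, 2 times in that of Itgav, once each in those of Itgb7, Itgb1 and Itga5, and 0 times in those of Itga4 and Itga9. Of 32851 promoter windows of the same length, 28.3% hold them on either strand. AGATAA or its reverse complement TTATCT, letters of a GATA factor site, occurred in 0 of the 7 windows and in 11.2% of all windows. GGGCGG or CCGCCC, the GC box, was in the windows of Itgam, Itga4, Itgb1, Itga5 and Itgav and in 35.7% of all windows. These matches describe letters, not binding.

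Itgal (ENSMUSG00000030830, chromosome 7 of GRCm38 from 127296260 to 127335138) encodes alphaL, the partner of beta2 in LFA-1, which binds ICAMs. Its level was 8.65, 4.05 and 12.04 CPM in replicates 1 to 3 of HS3A8-high, 57.4, 40.6 and 59.6 CPM in HS3A8-low, and 12.98, 20.2 and 16.7 CPM in the control. All HS3A8-low libraries were above all control libraries, and these were above all HS3A8-high libraries. The means were 8.24 ± 4.01, 52.5 ± 10.4 and 16.6 ± 3.63 CPM, and the log2 fold change of HS3A8-high over HS3A8-low was -2.70 (SE 0.390, 95% interval -3.63 to -1.78, adjusted p = 0.0251 in edgeR). The call was lost, with adjusted p from 0.0740 to 0.111, when HS3A8-high replicate 1, HS3A8-low replicate 1 or HS3A8-low replicate 2 was left out, and the log2 fold change ran from -3.07 to -2.37 over the 6 libraries left out in turn. Whether fewer cells carried the transcript or each cell held less of it cannot be told apart in bulk samples, here and in each gene below.

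Itgb2 (ENSMUSG00000000290, chromosome 10 from 77530252 to 77565708) encodes the beta2 chain that alphaL and alphaM share. It stood at 26.0, 27.3 and 42.8 CPM in HS3A8-high, at 55.2, 54.2 and 89.1 CPM in HS3A8-low and at 43.0, 38.3 and 34.7 CPM in the control. HS3A8-low was above the other libraries, and replicate 3 was the highest of each HS3A8 fraction, so that HS3A8-high replicate 3 lay in the range of the control. Between the fractions the log2 fold change of high over low was -1.08 (SE 0.276, 95% interval -1.74 to -0.43), short of the threshold in edgeR (adjusted p = 0.0851). The 3 same-numbered pairs differed by 1.08, 0.99 and 1.06 on the log2 scale, all with HS3A8-low higher, and the fit with the block called the gene (adjusted p = 0.00393 in edgeR). Without replicate 3 of both fractions the log2 fold change was -1.05 and the gene was called (adjusted p = 0.0171 in edgeR).

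Itgam (ENSMUSG00000030786, chromosome 7 from 128062640 to 128118491) encodes alphaM, the CD11b chain of neutrophils, monocytes and macrophages. Its level was low, at 0.445, 0.305 and 5.55 CPM in HS3A8-high, 3.01, 3.82 and 13.4 CPM in HS3A8-low and 1.89, 2.24 and 1.84 CPM in the control. These values rest on 4 to 160 counts per library. Replicate 3 was the highest of each HS3A8 fraction and made the fractions overlap, since HS3A8-high replicate 3 exceeded HS3A8-low replicates 1 and 2. On the log2 scale HS3A8-high differed from HS3A8-low by -1.70 (SE 1.13, 95% interval -4.37 to 0.97, adjusted p = 0.463 in edgeR). With the block it was -2.31 (adjusted p = 0.0403), and without replicate 3 of both fractions -3.16 (adjusted p = 0.0256, edgeR). The value ran from -4.15 without HS3A8-high replicate 3 to -0.72 without HS3A8-low replicate 3. In each same-numbered pair HS3A8-low was higher, by 2.42, 3.15 and 1.24 on the log2 scale.

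Itgb7 (ENSMUSG00000001281, chromosome 15 from 102215995 to 102231944) encodes the beta7 chain, which joins alpha4 in the receptor for MAdCAM-1. It was measured at 27.8, 26.0 and 59.5 CPM in HS3A8-high, 65.4, 60.5 and 127 CPM in HS3A8-low and 34.5, 41.2 and 31.5 CPM in the control. HS3A8-low lay above the other groups, although HS3A8-high replicate 3 came close to HS3A8-low replicate 2. HS3A8-high over HS3A8-low gave a log2 fold change of -1.19 (SE 0.417, 95% interval -2.18 to -0.20, adjusted p = 0.174 in edgeR). The pairs differed by 1.23, 1.21 and 1.09 on the log2 scale, and the fit with the block gave -1.21 (adjusted p = 0.00277). Leaving out replicate 3 of both fractions gave -1.24 (adjusted p = 0.0101, edgeR), and leaving out HS3A8-low replicate 3 alone gave -0.76.

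Markers of other blood cells were also mostly higher in HS3A8-low, apart from those of the erythroid lineage. The 19 granulocyte and monocyte markers summed to 25.6, 13.4 and 2007 CPM in replicates 1 to 3 of HS3A8-high, 146, 295 and 5095 CPM in HS3A8-low and 112, 222 and 173 CPM in the control. None of the 19 was at 0 in all libraries. All 13 that could be tested were higher in HS3A8-low, each with overlap between the fractions. Of these, 0 passed the threshold without the block and 8 with it, beside 3.21% and 8.27% of all genes called as higher in HS3A8-low. The 13 T and NK cell markers, none at 0 in every library, summed to 4.73 to 38.5 CPM in HS3A8-high, 204 to 252 CPM in HS3A8-low and 57.8 to 126 CPM in the control. Of the 11 tested, 3 were called and 6 with the block, all higher in HS3A8-low.

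The 10 B cell markers summed to 4.43 to 42.9, 45.7 to 117 and 24.5 to 32.4 CPM in the same order of groups, with Ms4a1 and Pax5 at 0 throughout, and 0 of 4 were called without and 2 with the block. The 10 basophil and mast cell markers summed to 84.9 to 178, 101 to 240 and 93.7 to 125 CPM, with Tpsb2 at 0 throughout, and 0 of 5 were called without and 1 with the block. The 11 stem and progenitor markers summed to 117 to 136, 263 to 331 and 223 to 232 CPM, and 2 of 10 were called without and 6 with the block, all higher in HS3A8-low. The 11 megakaryocyte markers summed to 42.5 to 65.9, 207 to 433 and 155 to 243 CPM, and 4 of 9 were called without and 7 with the block, again higher in HS3A8-low. None of the stem, progenitor and megakaryocyte markers was at 0 in every library. In each of the basophil and mast cell, the stem and progenitor and the megakaryocyte lists, 1 tested marker was higher in HS3A8-high. Of all genes, 3.21% were called as higher in HS3A8-low without and 8.27% with the block. The part of these markers in the integrin levels was not tested.

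**Figure D2:**
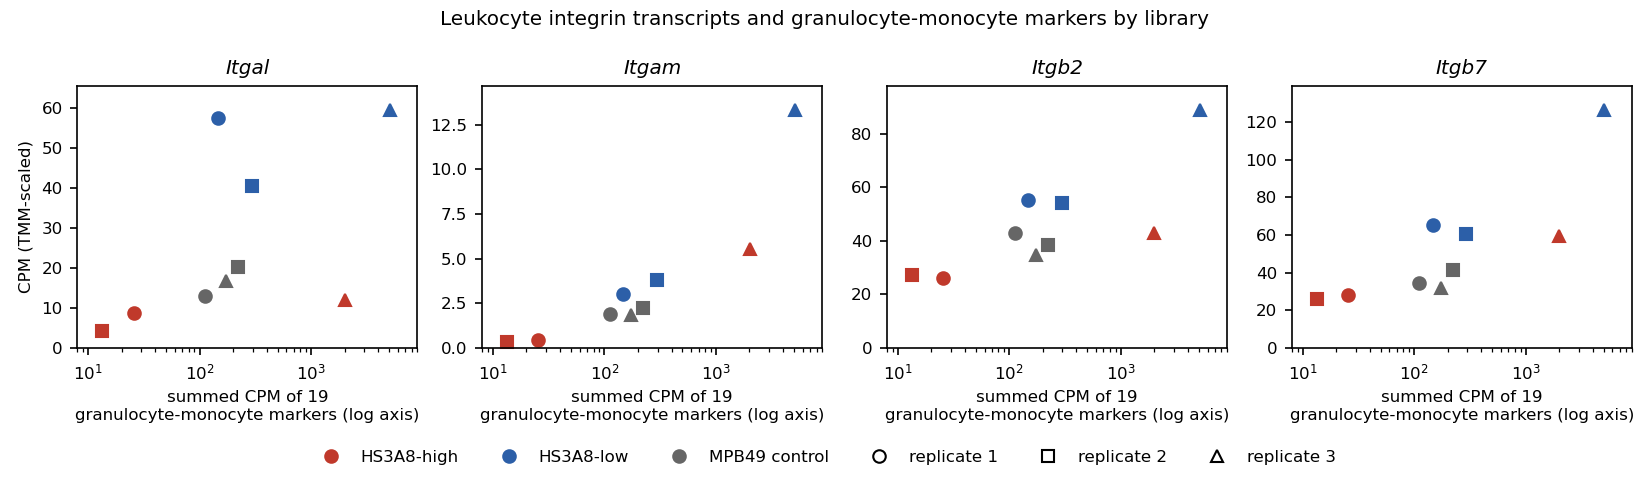
CPM of Itgal, Itgam, Itgb2 and Itgb7 (y axes, linear) against the summed CPM of 19 granulocyte and monocyte markers (x axes, log scale) in the 9 libraries, colored by group with the replicate as marker shape. Replicate 3 of HS3A8-high and HS3A8-low lies far to the right, at 2007 and 5095 CPM, and is the highest library of its fraction for each of the 4 genes, with Itgam at 5.55 and 13.4 CPM.

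Itgb1 (ENSMUSG00000025809, chromosome 8 from 128685654 to 128733200) encodes the beta1 chain, and had the most counts of the 10 genes. It stood at 347, 305 and 299 CPM in HS3A8-high, 314, 301 and 277 CPM in HS3A8-low and 261, 334 and 351 CPM in the control. The groups overlapped, and control replicate 1 was the lowest of all libraries. Their log2 fold change was 0.06 (SE 0.0923, adjusted p = 0.787 in edgeR), with a 95% interval of -0.16 to 0.27 that bounds the difference more closely than for any other of the 9 genes.

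Itga4 (ENSMUSG00000027009, chromosome 2 from 79255426 to 79333123) encodes alpha4, the chain that binds VCAM-1, and 8.04% of its exon bases also belong to Cerkl. Its level was 153, 99.3 and 93.3 CPM in HS3A8-high, 155, 97.2 and 87.1 CPM in HS3A8-low and 111, 127 and 111 CPM in the control. The replicates of a fraction differed far more than the fractions did, and replicate 1 was the highest in both. The log2 fold change was -0.01 (SE 0.275, 95% interval -0.66 to 0.64, adjusted p = 0.987 in edgeR). With the block the interval narrowed to -0.18 to 0.18.

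Itga5 (ENSMUSG00000000555, chromosome 15 from 103344286 to 103366763) encodes alpha5, the fibronectin receptor chain. It was at 163, 136 and 122 CPM in HS3A8-high, 126, 113 and 111 CPM in HS3A8-low and 135, 125 and 132 CPM in the control. HS3A8-high was higher in each same-numbered pair, while the groups overlapped through HS3A8-high replicate 3. The log2 fold change was 0.23 (SE 0.125, 95% interval -0.07 to 0.52, adjusted p = 0.367 in edgeR), and the block left it uncalled (adjusted p = 0.120).

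Itga6 (ENSMUSG00000027111, chromosome 2 from 71745616 to 71858416) encodes alpha6, a laminin receptor chain that megakaryocytes and stem cells also carry. Its level was 31.3, 23.7 and 20.1 CPM in HS3A8-high, 60.5, 30.5 and 29.3 CPM in HS3A8-low and 16.8, 40.0 and 27.2 CPM in the control. HS3A8-low was higher in every pair, by 0.95, 0.36 and 0.54 on the log2 scale, although the fractions overlapped through HS3A8-high replicate 1. The log2 fold change was -0.72 (SE 0.323, 95% interval -1.48 to 0.05, adjusted p = 0.282 in edgeR), and the block brought it past the threshold at -0.66 (adjusted p = 0.0418). The summed level of the 11 megakaryocyte markers was 42.5 to 65.9 CPM in HS3A8-high and 207 to 433 CPM in HS3A8-low. In the control, where Itga6 overlapped both fractions, that sum was 155 to 243 CPM. Of the 9 markers tested between the fractions, 8 were higher in HS3A8-low and 1 in HS3A8-high. The part of these markers in the level of Itga6 was not tested.

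Itgav (ENSMUSG00000027087, chromosome 2 from 83724397 to 83806916), the alphav chain that binds vitronectin and fibronectin, was low throughout, and 5.90% of its exon bases also belong to Gm13684. It stood at 2.54, 2.44 and 3.64 CPM in HS3A8-high, 5.89, 4.24 and 2.67 CPM in HS3A8-low and 0.721, 2.31 and 3.53 CPM in the control. The groups overlapped, and the pairs differed in sign. Between the fractions it was -0.61 on the log2 scale (SE 0.383, adjusted p = 0.439 in edgeR). Itga9 (ENSMUSG00000039115, chromosome 9 from 118606690 to 118901003), the alpha9 chain, had 0 to 9 counts per library and did not pass the count filter of the test. Its highest value was 0.662 CPM, in control replicate 3, and it was at 0 in HS3A8-high replicate 3 and control replicate 1, where 0 counts allow up to 3.

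**Figure D3:**
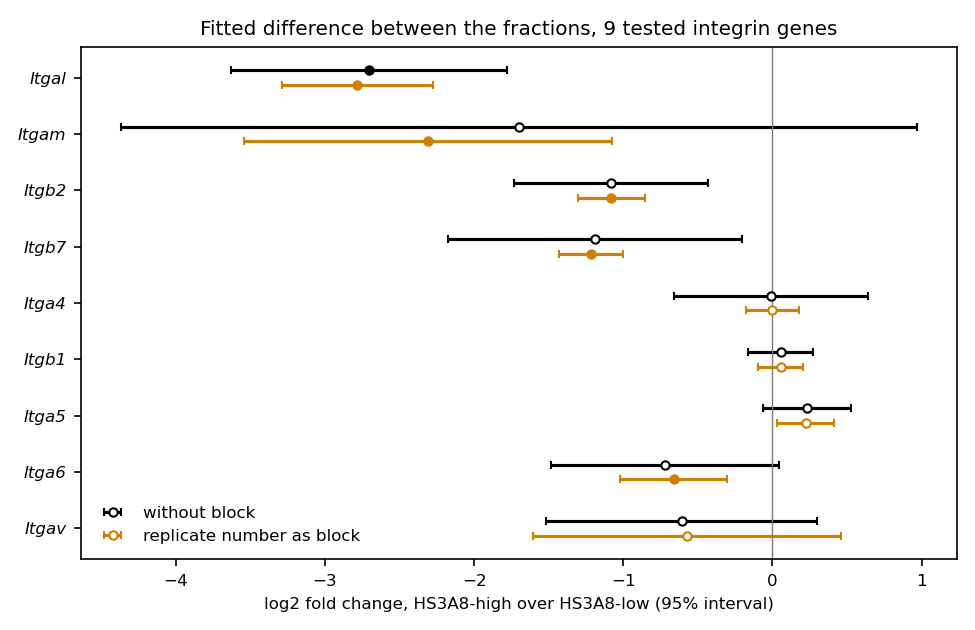
Log2 fold change of HS3A8-high over HS3A8-low (x axis) for the 9 tested integrin genes (y axis), with 95% intervals, from the edgeR fits without (black) and with (orange) the replicate number as a block; filled points passed an adjusted p of 0.05. Itgal is filled in both fits, Itgam, Itgb2, Itgb7 and Itga6 only with the block, and the points of Itga4 (-0.01) and Itgb1 (0.06) lie beside 0.

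Both fractions were also set against the MPB49 control, with the caveat that these comparisons share the control libraries. For HS3A8-high, 0 of the 9 genes passed the threshold in edgeR, where 0.0174% of 11486 genes did and 562 (4.89%) had an unadjusted p under 0.05, and DESeq2 called 143 genes (1.06%), with 0 of the 9 among them. Itgal was the single member whose groups did not overlap, lower in HS3A8-high with a log2 fold change of -1.02 (adjusted p = 0.733 in edgeR), while 6.85% of all genes lay wholly below the control. Itgb2 (-0.28), Itgam (0.08) and Itgb7 (0.07) were nearer to the control on average, and HS3A8-high replicate 3 was in every case the highest of its group. The directions of Itgam and Itgb7 turned without replicate 3 of both groups, to -2.45 and -0.51, and Itgam in HS3A8-high replicates 1 and 2 (0.445 and 0.305 CPM) lay below every control library. For HS3A8-low, 0 of the 9 genes passed in edgeR, where 0 of 11878 genes did and 673 (5.67%) had an unadjusted p under 0.05. DESeq2 called 91 genes as higher in HS3A8-low (0.657%), Itgal among them. Itgal, Itgam, Itgb2 and Itgb7 were above the control in all HS3A8-low libraries, with log2 fold changes of 1.64, 1.73, 0.76 and 1.22, and 8.11% of all genes lay wholly above the control in this way. Their adjusted p in edgeR ran from 0.488 for Itgal to 0.793 for Itgam. Without HS3A8-low replicate 3 the log2 fold changes of Itgam, Itgb2 and Itgb7 were 0.76, 0.49 and 0.80, and that of Itgal was 1.55.

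Per length, Itgb1 was the leading transcript of the 10 in each group, at 77.7 ± 6.32 CPM per kb of exon for HS3A8-high, 72.8 ± 4.62 for HS3A8-low and 77.2 ± 11.7 for the control. In HS3A8-high it was followed by Itga5 (28.5 ± 4.13 CPM per kb), Itgb7 (13.6 ± 6.80), Itgb2 (10.5 ± 3.06) and Itga4 (8.24 ± 2.36), of which the last 3 did not differ beyond their spread. In HS3A8-low, Itgb7 (30.4 ± 13.3 CPM per kb), Itga5 (23.7 ± 1.66) and Itgb2 (21.7 ± 6.51) lay within their spread of each other. Itgal, at 1.25 ± 0.611 CPM per kb in HS3A8-high, reached 7.995 ± 1.58 in HS3A8-low, beside Itga4 at 8.09 ± 2.62. The control kept the order of HS3A8-high, with Itga6 (3.10 ± 1.29 CPM per kb) and Itgal (2.53 ± 0.553) next after Itga4. Itgam, Itgav and Itga9 closed the order in every group, none above 1.34 CPM per kb on average.

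Among beta chain transcripts the make-up differed between the fractions. Itgb1 made up 81.9, 80.3 and 67.0% of beta chain transcripts per kb in the HS3A8-high libraries, 62.9, 63.5 and 46.3% in those of HS3A8-low and 69.9, 73.8 and 78.2% in those of the control. No HS3A8-high library was below an HS3A8-low library. Itgb7 took 13.1% ± 5.62 of the HS3A8-high and 23.1% ± 7.01 of the HS3A8-low transcripts, and Itgb2 10.2% ± 2.35 and 16.7% ± 2.82. These shares are read from the same levels and are not a further test. The ratio of Itgal to Itgb2 per kb was 0.0688 to 0.154 in HS3A8-high, 0.311 to 0.483 in HS3A8-low and 0.140 to 0.246 in the control. Between the fractions the Itgal transcript thus differed more than the transcript of its partner. The ratio of Itga4 to Itgb1 was 0.105, 0.110 and 0.109 on average in the 3 groups.

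**Figure D4:**
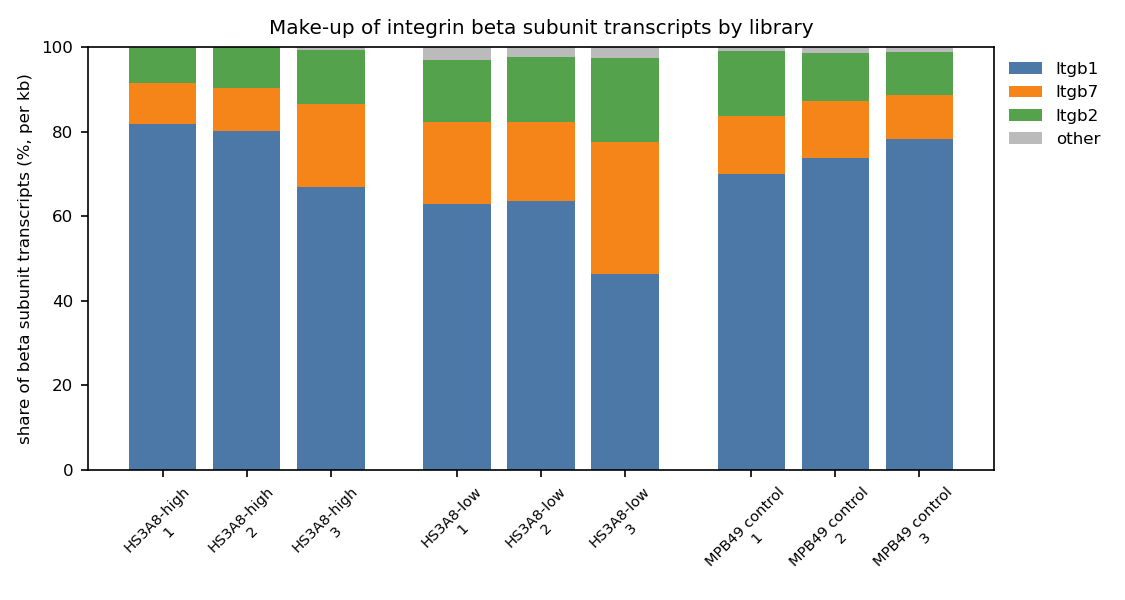
Share (y axis, percent, per kb of exon) of Itgb1, Itgb7, Itgb2 and the other beta chains in all integrin beta subunit transcripts of each library (x axis). Itgb1 is the largest part of every bar, from 46.3% in HS3A8-low replicate 3 to 81.9% in HS3A8-high replicate 1.

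The genes with the most similar pattern over the 9 libraries were looked up among the 9349 genes that averaged 5 CPM or more, by Pearson r of log2 CPM, where the points include 3 libraries of each group and cover all 3 groups. Itgb2 was closest to Dhrs7 (r = 0.981), Arpc1b (0.976), an Arp2/3 subunit, and S100a11 (0.974), a calcium-binding protein, against a median r of -0.119 over all genes. Itgb7 was closest to Selplg (0.975), the selectin ligand PSGL-1, Sh3bgrl3 (0.973) and Cotl1 (0.967), an actin-binding protein. Itgb1 was closest to Xrcc2 (0.979), a DNA repair protein, Med26 (0.975), a Mediator subunit, and Gnptab (0.973). Itgb2 and Itgb7 themselves correlated at r = 0.954, and Itgb2 and Itgb1 at -0.564.

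Of the 16 integrin genes that are no members, 4 could be tested between the fractions, all 4 were lower in HS3A8-high, and 2 were called, Itga2b and Itgb4, with 3.21% of all genes called in that direction. Itga2b, the platelet alphaIIb chain, stood at 8.07, 4.35 and 5.09 CPM in HS3A8-high and 126, 83.4 and 67.0 CPM in HS3A8-low, and the log2 fold change was -4.01 (SE 0.338, adjusted p = 0.00712 in edgeR). Itgb3, its partner, was at 0 to 2.84 CPM in HS3A8-high and 12.9 to 19.8 CPM in HS3A8-low (adjusted p = 0.106, and 0.0316 with the block, edgeR). Itgb4, the partner of alpha6, was near its detection limit in HS3A8-high, at 0.0636, 0.153 and 0.132 CPM, against 1.65, 1.20 and 1.92 CPM in HS3A8-low and 0.451, 0.577 and 0.736 CPM in the control (adjusted p = 0.0254 in edgeR). The call of Itgb4 was lost without any 1 library other than HS3A8-high replicate 3 (adjusted p up to 0.125, edgeR), and that of Itga2b without HS3A8-low replicate 2 (adjusted p = 0.0685, edgeR). Itgax, the CD11c chain of dendritic cells, was at 0, 0 and 0.397 CPM in HS3A8-high and 0.943, 3.04 and 3.34 CPM in HS3A8-low (adjusted p = 0.106, and 0.0371 with the block, edgeR). Itga1 reached 6.41 and 12.9 CPM in replicate 3 of HS3A8-high and HS3A8-low and was at most 0.424 CPM elsewhere, and Itga7, Itga11 and Itgb8 were at 0 in all libraries.

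A list of 33 genes held adaptors that link integrins to actin, regulators of their activity in either direction and associated proteins. Of these, 25 could be tested, and 20 were lower in HS3A8-high. The median log2 fold change was -0.24 (all genes -0.03), and 1 was called, against 3.21% of all genes. Zyx, the focal adhesion protein zyxin, was at 26.1, 20.6 and 45.6 CPM in HS3A8-high, 167, 128 and 112 CPM in HS3A8-low and 48.9, 71.0 and 57.6 CPM in the control. The fractions lay apart, with a log2 fold change of -2.17 (SE 0.314, adjusted p = 0.0251 in edgeR) and a level 4.41-fold higher in HS3A8-low. The call was lost (adjusted p up to 0.123, edgeR) when replicate 1 or 2 of either fraction was left out. The block added Rasgrp2, the Rap1 activator of platelets (-2.76), Nedd9 (-2.03), Skap2 (-0.72) and Rap1b (-0.45), all lower in HS3A8-high. That made 5 of the 25 with the block, where 8.27% of all genes were called as higher in HS3A8-low. The abundant integrin activators did not pass. Fermt3, kindlin-3, was at 601 CPM on average in HS3A8-high and 661 CPM in HS3A8-low, for a log2 fold change of -0.17 (95% interval -0.38 to 0.04, adjusted p = 0.339). Tln1, talin-1, was at 377 and 396 CPM, with -0.11 (95% interval -0.77 to 0.56, adjusted p = 0.873). Cd47, Actn4, Flna and Rap1b, the other genes of this list with the highest means, did not pass without the block either.

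Of 28 ligands, matrix proteins and receptors on neighboring cells, 8 could be tested and 1 was called, against 3.21% of all genes, with a median log2 fold change of -0.86. Emilin1, a matrix ligand of alpha4 and alpha9 integrins, was at 30.5, 23.7 and 41.7 CPM in HS3A8-high, 89.7, 64.7 and 71.8 CPM in HS3A8-low and 38.2, 51.5 and 35.9 CPM in the control. The fractions did not overlap, and the log2 fold change was -1.27 (SE 0.232, adjusted p = 0.0362 in edgeR). Of the 6 libraries left out in turn, the call held without HS3A8-high replicate 3 and was lost without any of the others (adjusted p up to 0.139, edgeR). Icam1, a ligand of LFA-1, was at 1.14, 0.305 and 1.92 CPM in HS3A8-high and 4.83, 7.28 and 7.34 CPM in HS3A8-low, uncalled without the block (adjusted p = 0.0696) and called with it (adjusted p = 0.0352, edgeR). Icam1 was also called without replicate 3 of both fractions (adjusted p = 0.0430, edgeR) and by DESeq2 (adjusted p = 0.000856). Icam2, another ligand of LFA-1, was at 47.8 and 54.9 CPM on average (adjusted p = 0.386). Vwf was at 15.4 and 32.8 CPM (adjusted p = 0.250). Fn1, fibronectin, was at 46.0 and 66.2 CPM in replicate 3 of the fractions and at most 1.71 CPM elsewhere.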

How the data were processed

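Raw read counts per gene, deposited by the authors, were used as they stand. Per the labels and the paper's methods, reads of low-input libraries were mapped to mm10 with STAR 2.5 and counted with HTSeq 0.6.1. The annotation release and strand setting are not given in the sources used here. Symbols, exon lengths and positions came from GENCODE M21 on GRCm38 (34490 identifiers matched).

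Counts were tested in R 4.3.3 with the quasi-likelihood test of edgeR 4.0.16 (TMM, filterByExpr, the 2 groups compared, Benjamini-Hochberg adjustment over all genes tested, threshold 0.05). CPM printed were TMM-scaled over 9 libraries, and correlations used log2 CPM with a prior count of 2. A count of 0 allows 3 counts, for counting error only. P-values set a difference between groups against the spread between libraries of a group. With the block, that spread is what is left after the shift shared by a number.

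The replicate numbers of the labels were checked for pairing. Departures from the mean of a group, taken over 12108 genes, went together in same-numbered HS3A8-high and HS3A8-low libraries (r from 0.325 to 0.509). For different numbers r ran from -0.469 to 0.122. These ranges are not independent of each other, since departures within a group cancel out. On this basis numbers were taken to pair the fractions, and not to pair either with the control (r from -0.346 to 0.0317).

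Members and lists were chosen with earlier results of these data known. All 10 members are named. Of the other lists, called genes and the most abundant others (at least 5 CPM, up to 6 per list) are named. Markers appear only as sums, counts and markers at 0, apart from some of the gate and of the erythroid list. Genes called with the block but not without it, Itgax, Itga1 and those at 0 were named after their values were seen. Alternatives tried were the replicate block, the test of DESeq2 1.42.0, its size factors in edgeR, other count filters (none, or a mean count of 10), a joint fit of the 9 libraries, and leaving out each library or replicate 3 of both groups.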

Additional observations from a re-analysis of the deposited data

How the results depend on the processing

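The count of integrin genes called between HS3A8-high and HS3A8-low, 1 without the block, was 5 with the replicate block, 3 with the DESeq2 test, 4 without replicate 3 of both fractions and 0 to 1 with each library left out. The share of all genes called as higher in HS3A8-low moved as well. It was 3.21% without the block, 8.27% with it, 6.67% with DESeq2 and 6.01% without replicate 3 of both fractions. The share of all genes with a single library left out is not given, so the counts for those fits have no background beside them. Against the control, HS3A8-low had 1 called gene (Itgal) with the DESeq2 test (all genes 0.657%) and 0 in edgeR. The 2 other integrin genes called became 4 with the block and 0 to 3 with a library left out. The 1 adaptor became 4 with DESeq2, 5 with the block, 3 without replicate 3 and 0 to 3 with a library left out, and the 1 ligand became 2, 2, 3 and 0 to 2 under the same settings. The cause was not tested, beyond the fact that the block takes up the shift shared by same-numbered libraries.

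The following log2 fold changes, none of them called, turned direction. Between the fractions, Itga4 was 0.0118 with DESeq2 size factors, 0.0122 with the DESeq2 test, 0.0135 with no count filter and 0.0157 with all libraries in a joint fit, and ran from -0.27 to 0.30 with a library left out, where Itgb1 ran from -0.0122 to 0.12. For HS3A8-high over the control, the block gave -1.07 for Itgam, -0.0380 for Itgb7 and 0.00159 for Itgb1. The numbers were not taken to pair these groups, so the block there joins libraries without a known link. In the same comparison, leaving out replicate 3 of both gave -2.45 for Itgam, -0.51 for Itgb7, 0.0618 for Itga4 and 0.11 for Itgb1. There Itgb1 was 0.00917 with DESeq2 size factors, 0.00908 with the DESeq2 test and 0.0156 with no count filter. With a library left out the values there ran from -2.39 to 0.56 for Itgam, -0.43 to 0.26 for Itgb7, -0.27 to 0.0964 for Itga4, -0.11 to 0.0796 for Itgb1, -0.0158 to 0.17 for Itga5, -0.43 to 0.17 for Itga6 and -0.0204 to 0.90 for Itgav. For HS3A8-low over the control, Itga4 was 0.0388 and Itgb1 0.00114 without replicate 3 of both, and Itga4 ran from -0.35 to 0.10 with a library left out.

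Depth limits Itgam, Itgav and Itga9, and 3 libraries per group limit the tests.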
